A study of Homo sapiens with 12 samples.

Results

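The 44 genes described here act in the passage of human cells from G1 into S phase, some as repressors, or in copying the DNA there. They were taken as the probe sets whose platform annotation names a gene of a list of G1/S and DNA replication genes, and they are 44 of the 17687 genes named on the array, each with 1 probe set. RNA was measured in PC-9 and H1975, human lung adenocarcinoma lines whose epidermal growth factor receptor is mutant and active. In each line 3 arrays held tolerant cells given 100 µM SK-216 for 48 h, and 3 arrays held tolerant cells without it, so 12 arrays form 4 groups. Tolerant cells in all 4 groups had survived 0.5 µM osimertinib, an inhibitor of that receptor, for 1 week and were taken as tolerant on day 8. SK-216 is a compound given only under this code name.

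What the groups can show is limited by what was hybridised. No untreated parental cells were analysed here. The labels do not say whether the tolerant cells without SK-216 were held for a further 48 h. They also do not say whether osimertinib stayed in the medium with SK-216. The source names of the SK-216 samples call the cells naive, whereas their titles and treatment text call them tolerant, and the titles were followed. Each line is a single established line, and nothing says that the 3 arrays of a group came from separate cultures. The p-values below therefore speak of the scatter among these arrays only, and that scatter may be technical.

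In the textbook scheme, cyclin E with its kinase completes the release of E2F transcription factors from the retinoblastoma protein, and E2F factors then switch on the genes of S phase. Origins are licensed in G1 when ORC, CDC6 and CDT1 load the MCM helicase. In S phase CDC45 and the GINS complex turn that helicase on, the polymerases copy both strands behind it, and PCNA, loaded by RFC, holds the polymerases on the template. FEN1 and LIG1 join the lagging strand, RRM1, RRM2, TYMS and TK1 supply deoxynucleotides, and CHAF1A, CHAF1B and UHRF1 restore chromatin on the new DNA. Cells that stop in G1 usually lose most of these transcripts together. In bulk RNA such as this, fewer cells in S phase and less RNA per cell cannot be told apart.

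All values are log2 signals, on which a difference of 1 is a factor of 2, and levels were compared only for the same probe set between arrays. Arrays of 1 group correlated at r = 0.9934 to 0.9953 over all probe sets, and the correlation across lines was 0.9274 to 0.9323. The array medians lay between 6.560 and 6.620. The 348 probe sets of olfactory receptors, which these cells are not known to use, served as the level of dim signal, with a 95th percentile of 5.06. Of the 44 genes, 38 lay above that level in all 4 groups. CDC25A, E2F2, MCM10, POLE2 and LIG1 lay at or below it in at least 1 group, and POLD1 did so in all 4, so changes of these 6 are read with that in mind. All 6 epithelial markers were above the level in every group. PTPRC and LYZ of the 4 leukocyte markers, PECAM1 and KDR of the 4 endothelial ones, and DCN and LUM of the 5 fibroblast ones were below it in every group. The other leukocyte and fibroblast markers, CD3E, CD14, COL1A1, COL1A2 and PDGFRB, were above it in every group. The endothelial markers VWF and CDH5 were above it in PC-9 and below it in H1975. The log2 of the summed epithelial signal was 17.94 to 18.00 in PC-9 cells with SK-216, against 17.78 to 17.82 in tolerant PC-9 cells, and 16.37 to 16.41 in H1975 cells with SK-216, against 16.60 to 16.66 in tolerant H1975 cells. The summed fibroblast signal was 8.86 to 9.24 in PC-9 cells with SK-216, against 8.41 to 8.85 in tolerant PC-9 cells, and 9.53 to 9.66 in H1975 cells with SK-216, against 9.96 to 10.2 in tolerant H1975 cells. By the limma test used below, 3 of the 6 epithelial markers were called with SK-216 in H1975 and 0 in PC-9 (2 higher and 0 lower at an unadjusted p below 0.05). At that unadjusted p, 1 epithelial marker was higher and 4 were lower in H1975. Of all probe sets, 3.80% were called in H1975 and 0.443% in PC-9. In H1975 CDH1 fell by 1.55 ± 0.13 (adjusted p = 4.51e-08), KRT8 fell by 0.24 ± 0.06 (adjusted p = 0.0287) and EPCAM rose by 0.77 ± 0.13 (adjusted p = 0.00044). COL1A1, 1 of the 5 fibroblast markers, fell by 0.96 ± 0.21 in H1975 (adjusted p = 0.00693), and 0 of them were called in PC-9 (1 higher and 0 lower at an unadjusted p below 0.05). At that unadjusted p, 1 fibroblast marker was higher and 1 was lower in H1975. No leukocyte or endothelial marker was called in either line. The part of these marker changes in the results below was not tested.

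Promoters are shown first because E2F factors are known to act through short sites close to the start of many of these genes. RefSeq promoters of GRCh38.p14, from 250 bases before to 50 after a gene's start, were matched to 38 of the 44 genes. CCNE2, DSCC1, E2F8, GINS4, MCM4 and MCM5 had no entry. An E2F motif was taken as TTTGGCGC, TTTCGCGC, TTTCCCGC or TTTGCCGC on either strand, and a gene counted where any of its promoters held one. The E2F motif was present for 22 of the 38 genes, 57.9%, against 3.99% of the 27305 genes with a promoter and 5.35% of the 14250 that also have a probe set. Of the 30 matches in the 38 genes, 6 shared bases with another E2F match and 1 with a CCAAT match. Sites of the genes described below are printed as 20 bases, turned so that the run of T comes first, with the motif in capitals. A match is a description of these letters and not a measured binding site.
CDC6, chr17:40287880-40287899: ttcggaTTTGGCGCgagcgc
CDT1, chr16:88803748-88803767: gccaaaTTTCCCGCgggcgc
E2F1, chr20:33686392-33686411: aaaggaTTTGGCGCgtaaaa
E2F1, chr20:33686405-33686424: atccttTTTGCCGCgaaaga
MCM3, chr6:52284733-52284752: ggaagtTTTCGCGCcggggt
MCM3, chr6:52284903-52284922: ggtacgTTTCCCGCcaccgc
PCNA, chr20:5126668-5126687: acgcctTTTCCCGCccctga
POLE2, chr14:49688206-49688225: ttgcgaTTTGGCGCcaccgc
TYMS, chr18:657608-657627: gcgcctTTTCCCGCggccgt
UHRF1, chr19:4909481-4909500: gattttTTTCCCGCgaaaac
UHRF1, chr19:4909978-4909997: gcccgaTTTCGCGCgccctg

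CDC6, CDT1, TYMS and UHRF1 lie on the plus strand and E2F1, MCM3, PCNA and POLE2 on the minus strand. The sites of CDT1, PCNA, POLE2 and TYMS, the second of E2F1 and the first of UHRF1 read this way on the strand opposite to the gene. The sites of UHRF1 lie farther apart than the 300 bases of a promoter, so they belong to different promoters of that gene. The motif starts at base 8 of the transcribed part in CDC6, runs across the start in POLE2 and in the first site of MCM3, and lies before the start in the rest. The whole promoters of 3 genes show how differently they are built. CDC6, which loads the helicase, holds 1 E2F motif, and E2F1, itself an E2F factor, holds 2, shown in capitals as they read on the gene's strand. RRM1, the large subunit of ribonucleotide reductase, holds no E2F motif but a CHR motif, TTTGAA on either strand, here in capitals as it reads on the gene's strand.
CDC6, chr17:40287629-40287928, plus strand: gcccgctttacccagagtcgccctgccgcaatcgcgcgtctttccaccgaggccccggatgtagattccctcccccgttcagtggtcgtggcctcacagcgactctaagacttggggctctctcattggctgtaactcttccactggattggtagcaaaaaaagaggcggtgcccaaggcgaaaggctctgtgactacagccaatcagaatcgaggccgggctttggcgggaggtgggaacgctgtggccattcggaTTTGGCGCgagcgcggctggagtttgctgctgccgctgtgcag
E2F1, chr20:33686336-33686635, minus strand: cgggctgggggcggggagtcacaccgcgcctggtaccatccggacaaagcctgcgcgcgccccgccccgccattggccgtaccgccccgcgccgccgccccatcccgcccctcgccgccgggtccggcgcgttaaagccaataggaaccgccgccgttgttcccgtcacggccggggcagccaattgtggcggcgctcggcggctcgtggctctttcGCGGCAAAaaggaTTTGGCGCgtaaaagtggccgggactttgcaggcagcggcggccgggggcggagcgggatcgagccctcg
RRM1, chr11:4094435-4094734, plus strand: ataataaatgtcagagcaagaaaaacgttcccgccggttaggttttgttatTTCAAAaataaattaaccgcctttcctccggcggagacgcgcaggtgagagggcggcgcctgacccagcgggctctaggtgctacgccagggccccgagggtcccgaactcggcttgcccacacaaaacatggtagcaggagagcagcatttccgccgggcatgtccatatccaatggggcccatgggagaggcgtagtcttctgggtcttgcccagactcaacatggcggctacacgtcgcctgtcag

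CHR motifs are known from promoters that are active in G2 and mitosis. Of the 38 genes, RRM1 alone held one, 2.63%, against 18.2% of all genes with a promoter and 66.7% of the 24 genes of G2/M and mitosis that had a promoter. The E2F motif had the opposite distribution, with 8.33% of those 24 genes, 36.4% of 33 other replication factors and 18.2% of 22 G1 regulators. CCAAT, read on either strand, was held by 60.5% of the 38 genes and by 39.7% of all genes with a promoter. It was held by 87.5% of the G2/M and mitosis genes, 57.6% of the other replication factors and 45.5% of the G1 regulators.

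**Figure D1:**
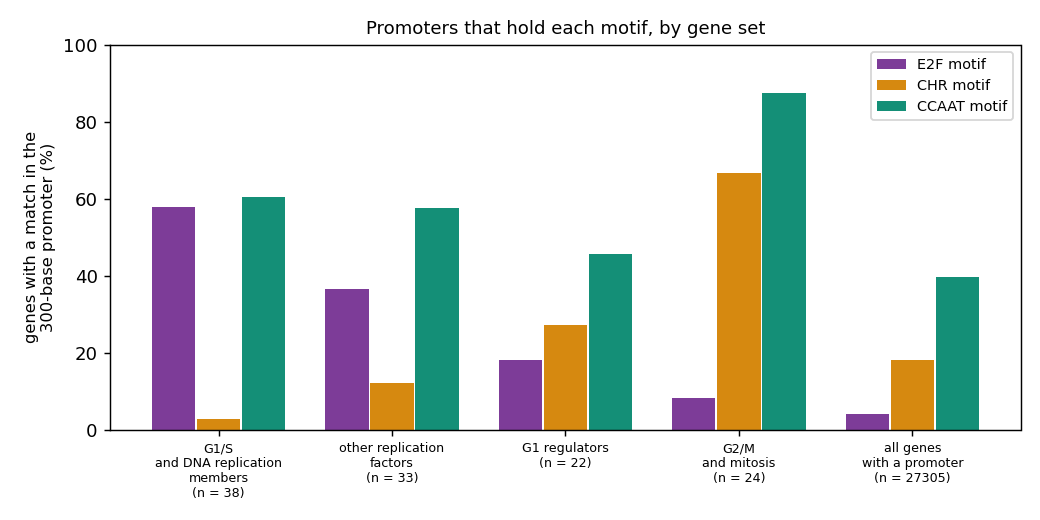
Share of genes whose RefSeq promoter of 300 bases holds an E2F, CHR or CCAAT motif on either strand, in percent, for the 38 G1/S and DNA replication genes with a promoter, 3 other cell cycle lists and all 27305 genes with a promoter. The E2F bar is 57.9% for the G1/S and DNA replication genes and 8.33% for G2/M and mitosis, where the CHR bar is 66.7%.

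SK-216 left no G1/S or replication gene past the test in PC-9 cells, although most of their means were higher. Of the 44 genes, 38 had a higher mean with SK-216 and 6 a lower one, where 49.4% of all probe sets were higher. The median log2 fold change of the 44 was 0.20, against -0.0033 over all 21448 probe sets. Changes were tested with limma on all 12 arrays and adjusted by Benjamini-Hochberg over all probe sets, and a gene was called where the adjusted p was below 0.05. By this rule 0 of the 44 were called, where 0.443% of all probe sets were, and the lowest adjusted p was 0.16. At an unadjusted p below 0.05, 13 genes were higher and 0 lower, where 6.39% of all probe sets were higher and 4.53% lower. In 14 genes every SK-216 array lay above every tolerant array, as in 8.21% of all probe sets, and in 1, DSCC1, every one lay below, as in 6.80%.

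In H1975 cells 1 of the 44 genes was called, E2F8, and it fell. The share called among all probe sets was 3.80%. As in PC-9, most means were higher with SK-216: 35 genes were higher and 9 lower, where 51.3% of all probe sets were higher, and the median log2 fold change was 0.17, against 0.01 over all probe sets. At an unadjusted p below 0.05, 7 genes were higher, where 6.33% of all probe sets were, and E2F8 alone was lower, where 7.87% were. In 12 genes every SK-216 array lay above every tolerant array, as in 8.95% of all probe sets, and in E2F8 alone every one lay below, as in 9.56%. In 30 genes the mean was higher in both lines, in POLD1 it was lower in both, and in 13 the lines went opposite ways. Only CDC6, CDT1, RRM1 and RRM2 had every SK-216 array above every tolerant array in both lines. The shares of all probe sets were not counted for both lines jointly, so these joint counts are a description only.

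**Figure D2:**
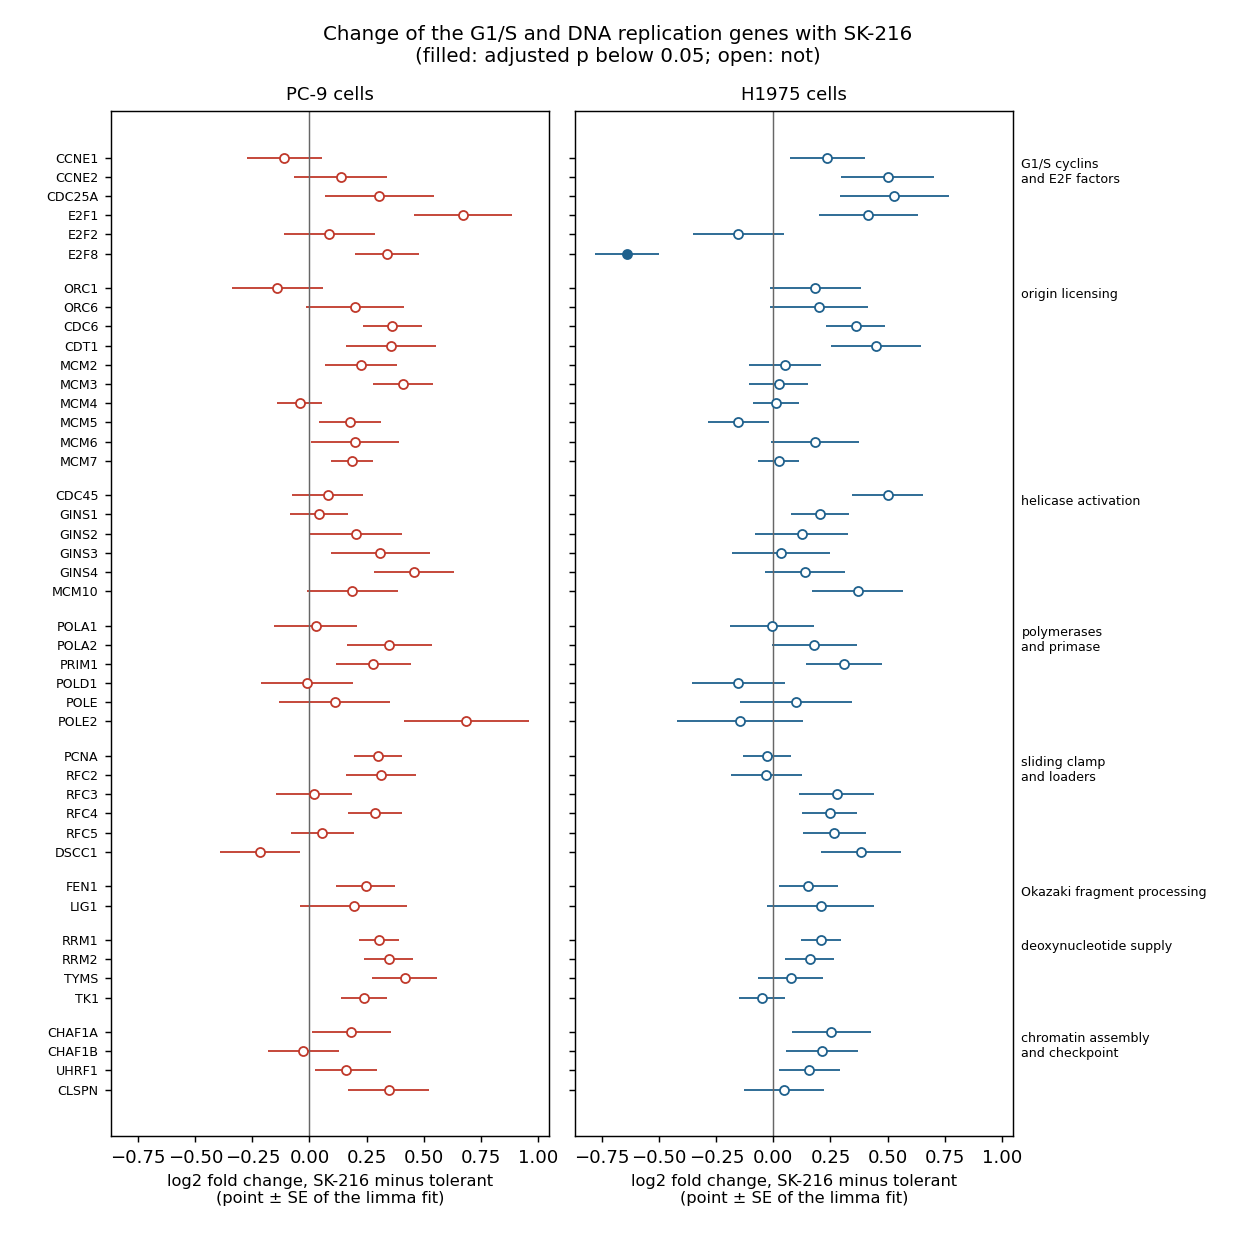
Log2 fold change of each of the 44 genes with SK-216 against tolerant cells (x axis, point ± standard error of the limma fit, 3 arrays per group), in PC-9 cells on the left and H1975 cells on the right, ordered by role. E2F8 in H1975, at -0.64, is the only filled point, that is the only one with an adjusted p below 0.05.

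Between the lines the SK-216 change differed for 1 of the 44 genes, again E2F8, where 1.42% of all probe sets had a called difference. E2F8 encodes an atypical E2F factor that represses E2F target genes in S phase. Its log2 signal was 9.22, 9.48 and 9.37 in PC-9 cells with SK-216, against 9.0, 8.91 and 9.14 in tolerant PC-9 cells. In H1975 cells it was 8.64, 8.71 and 8.52 with SK-216, against 9.20, 9.30 and 9.29 in tolerant cells. The groups do not overlap in either line, and the order is reversed between the lines. In PC-9 the log2 fold change of E2F8 was 0.34 ± 0.14 (standard error of the fit, 3 arrays per group) with an adjusted p of 0.37 by limma. In H1975 E2F8 fell by 0.64 ± 0.14 on the log2 scale (adjusted p = 0.0081 by limma). The difference, PC-9 minus H1975, was 0.98 ± 0.20 with an adjusted p of 0.00946 by limma.

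E2F7, the other atypical repressor, belongs to the G1 regulators and moved the other way in H1975. Its log2 signal was 8.81, 9.04 and 8.79 in PC-9 cells with SK-216, against 9.42, 8.60 and 8.87 in tolerant PC-9 cells. In H1975 it was 10.53, 10.45 and 10.55 with SK-216, against 9.79, 9.62 and 9.45 in tolerant cells, so the PC-9 groups overlap and the H1975 groups do not. The log2 fold change of E2F7 was -0.08 ± 0.17 in PC-9 (adjusted p = 0.903 by limma), and it rose by 0.89 ± 0.17 in H1975 (adjusted p = 0.00205 by limma). The difference was -0.97 ± 0.24 with an adjusted p of 0.038 by limma. That call ended in 9 of the 12 fits that left out 1 array, with adjusted p between 0.0527 and 0.107. It held without H1975 tolerant array 1, PC-9 tolerant array 2 or PC-9 SK-216 array 2.

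Among the remaining G1/S cyclins and E2F factors, none passed the test in either line. E2F1, an activating E2F factor, had 6.38, 6.91 and 6.91 in PC-9 cells with SK-216, against 6.16, 6.35 and 5.67 in tolerant PC-9 cells. In H1975 E2F1 had 7.95, 8.39 and 8.47 with SK-216, against 7.73, 7.97 and 7.86 in tolerant cells. The PC-9 groups are apart by a narrow gap, and in H1975 1 SK-216 array lies within the tolerant range. The log2 fold change of E2F1 was 0.67 ± 0.21 in PC-9 and 0.42 ± 0.21 in H1975, with adjusted p of 0.209 and 0.398 by limma. CCNE2, one of the E cyclins, had 7.94, 7.86 and 8.09 in PC-9 cells with SK-216, against 7.66, 7.64 and 8.18 in tolerant PC-9 cells. In H1975 CCNE2 had 7.69, 7.67 and 7.98 with SK-216, against 7.00, 7.72 and 7.12 in tolerant cells. Both pairs of groups overlap, through tolerant array 3 in PC-9 and tolerant array 2 in H1975, and in H1975 the log2 fold change of CCNE2 was 0.50 ± 0.20 (adjusted p = 0.229 by limma). CCNE1, E2F2 and CDC25A, the phosphatase that activates the cyclin E kinase, had log2 fold changes of -0.11 to 0.31 in PC-9 and -0.15 to 0.53 in H1975.

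Licensing genes were higher on average in both lines, and the loading factors CDC6 and CDT1 were the members of this role whose arrays separated in both. CDC6 had 11.25, 11.05 and 11.04 in PC-9 cells with SK-216, against 10.97, 10.81 and 10.47 in tolerant PC-9 cells. In H1975 CDC6 had 11.79, 11.82 and 12.09 with SK-216, against 11.57, 11.62 and 11.43 in tolerant cells. The log2 fold changes of CDC6 were nearly equal, 0.36 ± 0.13 in PC-9 and 0.36 ± 0.13 in H1975, with adjusted p of 0.269 and 0.147 by limma. CDT1 had 7.01, 6.92 and 7.33 in PC-9 cells with SK-216, against 6.62, 6.70 and 6.87 in tolerant PC-9 cells. In H1975 CDT1 had 7.52, 7.53 and 7.39 with SK-216, against 7.24, 6.67 and 7.18 in tolerant cells, and tolerant array 2 stands below the rest of its group. The log2 fold change of CDT1 was 0.36 ± 0.20 in PC-9 and 0.45 ± 0.20 in H1975, with adjusted p of 0.534 and 0.282 by limma. Without H1975 tolerant array 2 its log2 fold change in H1975 was 0.27 (adjusted p = 0.675).

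Among the MCM subunits, which form the ring of the helicase, arrays separated for MCM3 and MCM7 in PC-9 and for none in H1975. MCM3 had 10.54, 10.79 and 10.52 in PC-9 cells with SK-216, against 10.18, 10.17 and 10.27 in tolerant PC-9 cells. In H1975 MCM3 had 10.32, 10.21 and 10.06 with SK-216, against 10.36, 10.12 and 10.04 in tolerant cells. The PC-9 groups are apart and the H1975 groups overlap. MCM3 had a log2 fold change of 0.41 ± 0.13 in PC-9 and 0.02 ± 0.13 in H1975, and the difference of 0.39 ± 0.18 was not called (adjusted p = 0.383 by limma). MCM4 had 11.16, 11.03 and 11.19 in PC-9 cells with SK-216, against 11.13, 11.18 and 11.20 in tolerant PC-9 cells. In H1975 MCM4 had 12.33, 12.45 and 12.46 with SK-216, against 12.39, 12.49 and 12.32 in tolerant cells. MCM4 overlapped in both lines, with log2 fold changes of -0.04 ± 0.10 in PC-9 and 0.01 ± 0.10 in H1975. The other 4 MCM subunits, MCM2 and MCM5 to MCM7, had log2 fold changes of 0.18 to 0.23 in PC-9 and -0.15 to 0.18 in H1975. ORC1 and ORC6, subunits of the origin recognition complex, had -0.14 and 0.20 in PC-9 and 0.18 and 0.20 in H1975.

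Helicase activators had higher means with SK-216 for 6 of 6 genes in each line, without a call. CDC45, which completes the active helicase, came nearest in H1975. It had 9.11, 9.02 and 9.25 in PC-9 cells with SK-216, against 9.29, 8.81 and 9.04 in tolerant PC-9 cells. In H1975 CDC45 had 9.73, 9.5 and 9.80 with SK-216, against 9.28, 8.97 and 9.28 in tolerant cells. The PC-9 groups overlap and the H1975 groups are apart. CDC45 had a log2 fold change of 0.08 ± 0.15 in PC-9 and 0.50 ± 0.15 in H1975, with adjusted p of 0.897 and 0.0785 by limma. GINS1 to GINS4 and MCM10, which joins the helicase as it starts, had log2 fold changes of 0.04 to 0.46 in PC-9 and 0.03 to 0.37 in H1975.

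No polymerase gene was called in either line. POLE2, a subunit of DNA polymerase epsilon, had 6.20, 4.93 and 6.03 in PC-9 cells with SK-216, against 4.82, 4.72 and 5.56 in tolerant PC-9 cells. In H1975 POLE2 had 6.86, 7.15 and 7.10 with SK-216, against 7.10, 7.23 and 7.22 in tolerant cells. The PC-9 arrays straddle the level of dim signal, and POLE2 had the largest spread between arrays of the 44 genes, a pooled SD of 0.423. Its log2 fold change was 0.69 ± 0.27 in PC-9 and -0.15 ± 0.27 in H1975, and the difference of 0.83 ± 0.39 was not called (adjusted p = 0.374 by limma). POLA1, POLA2 and PRIM1 of the primase complex and POLD1 and POLE, the catalytic subunits of polymerases delta and epsilon, had log2 fold changes of -0.01 to 0.35 in PC-9 and -0.15 to 0.31 in H1975.

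Of the clamp and its loaders, none was called in either line, and DSCC1 had opposite signs in the 2 lines. PCNA had 12.27, 12.41 and 12.31 in PC-9 cells with SK-216, against 11.89, 12.19 and 12.01 in tolerant PC-9 cells. In H1975 PCNA had 13.70, 13.97 and 13.59 with SK-216, against 13.77, 13.69 and 13.88 in tolerant cells. PCNA separated in PC-9 and overlapped in H1975, with log2 fold changes of 0.30 ± 0.11 and -0.03 ± 0.11 and adjusted p of 0.266 and 0.951 by limma, and the difference of 0.33 ± 0.15 was not called (adjusted p = 0.362). DSCC1, a subunit of an alternative clamp loader, had 7.01, 7.31 and 7.19 in PC-9 cells with SK-216, against 7.36, 7.47 and 7.33 in tolerant PC-9 cells. In H1975 DSCC1 had 8.09, 8.17 and 7.79 with SK-216, against 7.70, 7.64 and 7.56 in tolerant cells. The groups of DSCC1 do not overlap in either line and are ordered in opposite ways, as for E2F8 but with the signs exchanged. Its log2 fold change was -0.22 ± 0.17 in PC-9 and 0.38 ± 0.17 in H1975, and the difference of -0.60 ± 0.25 was not called (adjusted p = 0.291 by limma). RFC2 to RFC5, which load the clamp, had log2 fold changes of 0.02 to 0.31 in PC-9 and -0.03 to 0.28 in H1975.

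No gene of deoxynucleotide supply was called in either line. In PC-9 cells all 4 had every SK-216 array above every tolerant array, as in 8.21% of all probe sets. Each of the 4 was also higher there at an unadjusted p below 0.05 by limma, as were 6.39% of all probe sets. RRM1 had 12.79, 12.78 and 12.64 in PC-9 cells with SK-216, against 12.30, 12.46 and 12.54 in tolerant PC-9 cells. In H1975 RRM1 had 14.57, 14.49 and 14.45 with SK-216, against 14.28, 14.33 and 14.27 in tolerant cells. RRM1 is apart in both lines, with log2 fold changes of 0.30 ± 0.09 in PC-9 and 0.21 ± 0.09 in H1975, and its adjusted p of 0.16 by limma is the lowest of the 44 genes in PC-9. RRM2, the small subunit of ribonucleotide reductase, had 11.92, 12 and 11.70 in PC-9 cells with SK-216, against 11.38, 11.57 and 11.63 in tolerant PC-9 cells. In H1975 RRM2 had 12.25, 12.10 and 12.25 with SK-216, against 12.09, 11.99 and 12.04 in tolerant cells. RRM2 is apart in both lines, narrowly in H1975, with log2 fold changes of 0.35 ± 0.11 in PC-9 and 0.16 ± 0.11 in H1975.

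The enzymes that make thymidine nucleotides separated in PC-9 and overlapped in H1975. TYMS, thymidylate synthase, had 11.61, 11.55 and 11.57 in PC-9 cells with SK-216, against 10.93, 11.34 and 11.21 in tolerant PC-9 cells. In H1975 TYMS had 11.92, 12.17 and 11.63 with SK-216, against 11.95, 11.52 and 12.02 in tolerant cells. The log2 fold change of TYMS was 0.42 ± 0.14 in PC-9 and 0.08 ± 0.14 in H1975, with adjusted p of 0.248 and 0.889 by limma. TK1, thymidine kinase, had 12.35, 12.42 and 12.25 in PC-9 cells with SK-216, against 12.06, 12.12 and 12.12 in tolerant PC-9 cells. In H1975 TK1 had 11.40, 11.45 and 11.31 with SK-216, against 11.45, 11.35 and 11.51 in tolerant cells. TK1 had log2 fold changes of 0.24 ± 0.10 in PC-9 and -0.05 ± 0.10 in H1975, and neither the difference of TYMS (0.34 ± 0.20, adjusted p = 0.515) nor that of TK1 (0.29 ± 0.14, adjusted p = 0.396) was called by limma.

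No gene of lagging strand joining or chromatin assembly was called in either line. FEN1, the flap nuclease of the lagging strand, had 11.08, 11.24 and 11 in PC-9 cells with SK-216, against 10.82, 10.92 and 10.84 in tolerant PC-9 cells. In H1975 FEN1 had 12.60, 12.53 and 12.06 with SK-216, against 12.08, 12.22 and 12.43 in tolerant cells. FEN1 is apart in PC-9 and overlaps in H1975, with log2 fold changes of 0.25 ± 0.13 and 0.15 ± 0.13. LIG1, the ligase of the same step, had 0.19 ± 0.23 in PC-9 and 0.21 ± 0.23 in H1975. CHAF1A, a subunit of the chromatin assembly factor that places histones behind the fork, had 7.03, 6.98 and 7.52 in PC-9 cells with SK-216, against 6.77, 7.05 and 7.16 in tolerant PC-9 cells. In H1975 CHAF1A had 9.51, 9.75 and 9.73 with SK-216, against 9.37, 9.42 and 9.44 in tolerant cells. CHAF1A overlaps in PC-9 and is apart in H1975, with log2 fold changes of 0.18 ± 0.17 and 0.25 ± 0.17. UHRF1, which brings the maintenance DNA methyltransferase to new DNA, had 9.05, 8.96 and 8.71 in PC-9 cells with SK-216, against 8.52, 8.83 and 8.89 in tolerant PC-9 cells. In H1975 UHRF1 had 11.63, 11.54 and 11.64 with SK-216, against 11.56, 11.40 and 11.38 in tolerant cells. UHRF1 overlaps in both lines, with a log2 fold change of 0.16 ± 0.13 in each. CHAF1B and CLSPN, a mediator of the replication checkpoint, had -0.03 and 0.35 in PC-9 and 0.21 and 0.05 in H1975.

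Split by promoter, the 22 genes with an E2F motif had a higher mean with SK-216 in 22 of 22 cases in PC-9 and in 18 of 22 in H1975, with median log2 fold changes of 0.26 and 0.11. The 16 genes without one were higher in 12 of 16 cases in PC-9 and in 13 of 16 in H1975, with medians of 0.19 and 0.21. Of all probe sets, 49.4% had a higher mean with SK-216 in PC-9 and 51.3% in H1975. The larger median was that of the genes with the motif in PC-9 and of those without it in H1975. None of these 38 genes was called in either line, so the split is a description.

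Taken array by array, the 44 genes separated SK-216 from tolerant cells in both lines by a small margin. For each array the median over the 44 genes of its deviation from the mean of its line was taken. This was 0.13, 0.13 and 0.059 in PC-9 cells with SK-216, against -0.21, -0.083 and -0.047 in tolerant PC-9 cells. In H1975 it was 0.063, 0.093 and 0.053 with SK-216, against -0.014, -0.098 and -0.08 in tolerant cells. The lowest value, of tolerant PC-9 array 1, stands farther from its group than any other, and without that array the median log2 fold change of the 44 genes in PC-9 was 0.205. The 348 olfactory receptor probe sets had median changes of -0.08 in PC-9 and 0.06 in H1975, and the part of such shifts in the members' changes was not tested.

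**Figure D3:**
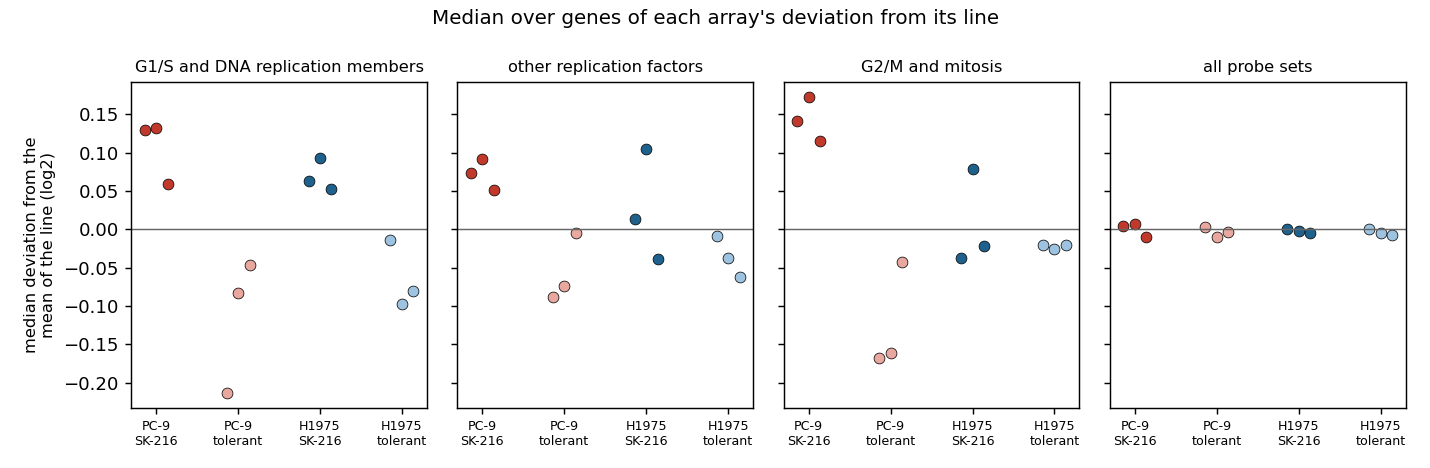
Median over genes of each array's deviation from the mean of its line (y axis, log2), with 1 point per array, for the 44 G1/S and DNA replication genes, 2 further lists and all probe sets. The G1/S and replication points lie above 0 on all 6 SK-216 arrays and below 0 on all 6 tolerant arrays, whereas the G2/M points do so in PC-9 alone.

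Other genes of the pathway were counted from lists of G1 regulators, further replication factors and genes of G2/M and mitosis. Of 41 further replication factors, 30 had a higher mean with SK-216 in PC-9 and 24 in H1975, with medians of 0.15 and 0.04. In each line 1 of the 41 was called, where 0.443% of all probe sets were called in PC-9 and 3.80% in H1975. RPA2, a subunit of the protein that coats single-stranded DNA, had 7.55, 7.92 and 7.77 in PC-9 cells with SK-216, against 6.59, 7.14 and 6.31 in tolerant PC-9 cells. It rose by 1.07 ± 0.20 in PC-9 (adjusted p = 0.0136 by limma), and the call ended without PC-9 tolerant array 1 or 3 or SK-216 array 2 or 3, with adjusted p between 0.0528 and 0.111. In H1975 RPA2 had a log2 fold change of 0.12 ± 0.20, and the difference of 0.95 ± 0.29 was not called (adjusted p = 0.108 by limma). TOPBP1, which helps to activate the helicase, had 11.29, 11.32 and 11.20 in PC-9 cells with SK-216, against 11.30, 11.08 and 11.21 in tolerant PC-9 cells. In H1975 TOPBP1 had 11.86, 11.56 and 11.57 with SK-216, against 11.13, 11.34 and 11.25 in tolerant cells. In PC-9 the groups overlap and its log2 fold change was 0.07 ± 0.11. It rose by 0.42 ± 0.11 in H1975 (adjusted p = 0.036 by limma), and the call ended without tolerant array 1 or 3 or SK-216 array 1 of H1975, with adjusted p between 0.0876 and 0.218. The difference of -0.35 ± 0.16 was not called (adjusted p = 0.372 by limma).

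Of 26 G1 regulators, 17 had a higher mean with SK-216 in PC-9 and 13 in H1975, with medians of 0.06 and -0.01. Of them 1 was called in PC-9, where 0.443% of all probe sets were, and 2 in H1975, E2F7 among them, where 3.80% were. CDKN1A, the p21 inhibitor of cyclin-dependent kinases, had 8.66, 8.57 and 8.68 in PC-9 cells with SK-216, against 7.86, 8.06 and 7.75 in tolerant PC-9 cells. It rose by 0.75 ± 0.16 in PC-9 (adjusted p = 0.0369 by limma), and in H1975 its log2 fold change was 0.18 ± 0.16 (adjusted p = 0.713 by limma). The CDKN1A call ended without PC-9 tolerant array 1 or 3 and without any 1 of the PC-9 SK-216 arrays, with adjusted p between 0.106 and 0.157. CCND1, the D cyclin that starts the phosphorylation of the retinoblastoma protein, had 14.68, 14.43 and 14.56 in PC-9 cells with SK-216, against 14.77, 14.47 and 14.34 in tolerant PC-9 cells, where the groups overlap. In H1975 CCND1 had 12.62, 12.64 and 12.73 with SK-216, against 11.84, 12.08 and 11.69 in tolerant cells, where they do not. CCND1 had a log2 fold change of 0.03 ± 0.11 in PC-9 and rose by 0.79 ± 0.11 in H1975 (adjusted p = 6.35e-05 by limma), and the difference of -0.76 ± 0.16 was called (adjusted p = 0.01 by limma).

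Of 30 genes of G2/M and mitosis, 27 had a higher mean with SK-216 in PC-9 and 15 in H1975, with medians of 0.265 and 0.0017. In PC-9 2 were called, where 0.443% of all probe sets were. AURKA, a mitotic kinase, rose by 0.48 ± 0.10 and CCNA2, the cyclin of S and G2, by 0.42 ± 0.09 (adjusted p = 0.018 and 0.0383 by limma). At an unadjusted p below 0.05, 16 were higher and 0 lower in PC-9, where 6.39% and 4.53% of all probe sets were. In 16 every PC-9 SK-216 array lay above every tolerant array, as in 8.21% of all probe sets. In H1975 0 were called, where 3.80% of all probe sets were. There 3 were higher and 1 lower at an unadjusted p below 0.05, where 6.33% and 7.87% of all probe sets were. The AURKA call ended without PC-9 tolerant array 2 or 3 or SK-216 array 1 or 2, with adjusted p between 0.0578 and 0.127. The CCNA2 call ended without any 1 of the 6 PC-9 arrays and without H1975 tolerant array 2, with adjusted p between 0.0511 and 0.188. No difference between the lines was called in this list, where 8 genes were higher in PC-9 and 1 lower at an unadjusted p below 0.05, against 7.31% and 5.39% of all probe sets.

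**Figure D4:**
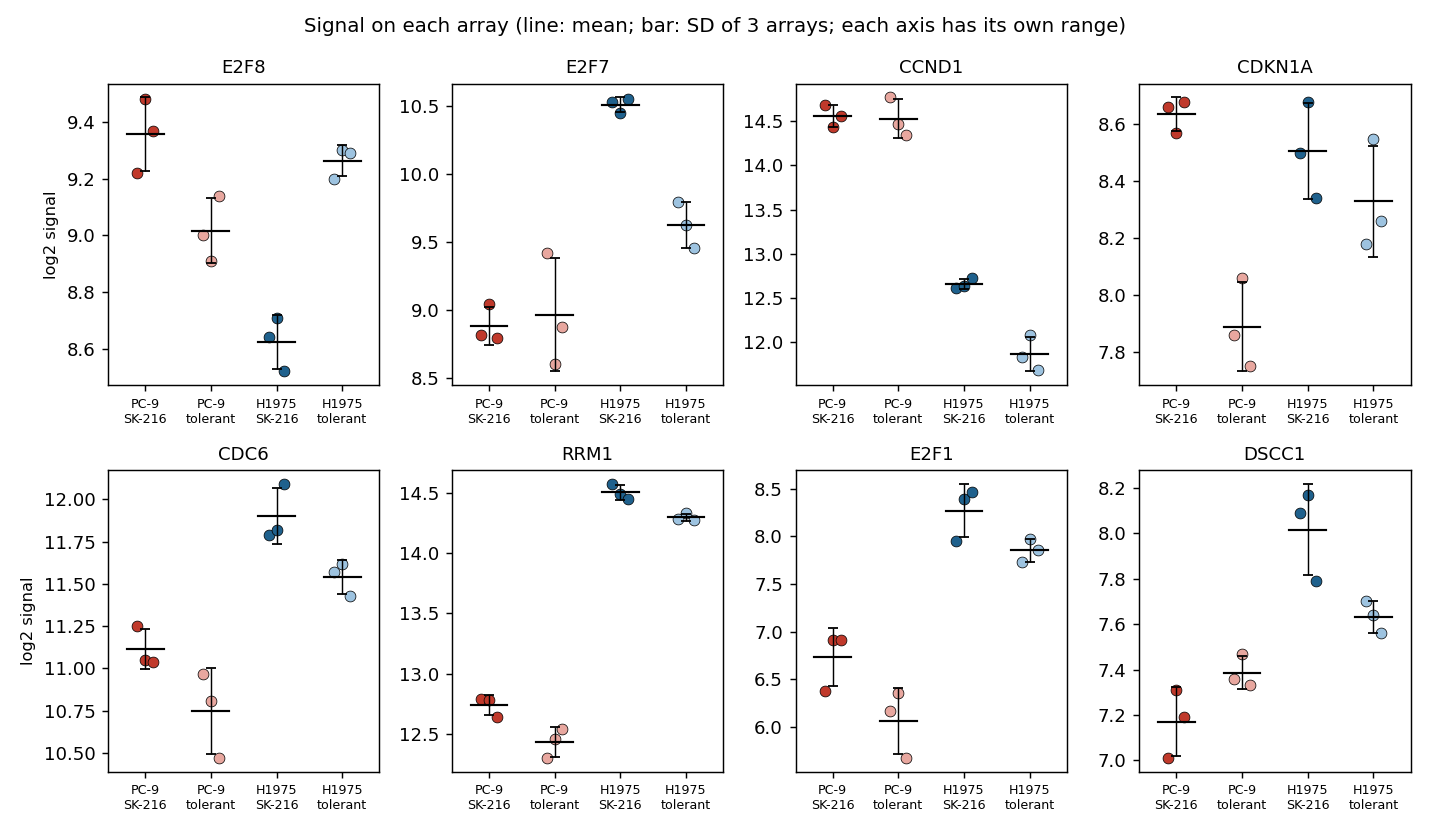
Log2 signal on each of the 12 arrays (1 point per array, line for the mean, bar for the SD of 3 arrays) for 5 G1/S and DNA replication genes and 3 G1 regulators, with PC-9 groups on the left and SK-216 before tolerant cells. E2F8 lies above the tolerant arrays in PC-9 and below them in H1975, and E2F7 and CCND1 are apart in H1975 alone.

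Without SK-216, 29 of the 44 genes were lower in tolerant PC-9 than in tolerant H1975 cells. This comparison uses the same tolerant arrays as the SK-216 contrasts, and it compares 2 lines that differ in many genes. Of the 44 genes 32 were called, where 44.0% of all probe sets were. The 29 lower in PC-9 compare with 22.7% of all probe sets, and 3 were higher, where 21.3% were. Every tolerant PC-9 array lay below every tolerant H1975 array in 33 genes, as in 25.3% of all probe sets. The median log2 difference was -0.61 over the 44 genes and 0.02 over all probe sets.

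The 6 genes with the smallest p belong to chromatin assembly, deoxynucleotide supply, the clamp, the helicase and the lagging strand. UHRF1 averaged 8.75 ± 0.20 in tolerant PC-9 and 11.45 ± 0.10 in tolerant H1975 cells (SD, n = 3 each), a log2 difference of -2.70 ± 0.13 (adjusted p = 1.74e-14 by limma). CHAF1A averaged 6.99 ± 0.20 in tolerant PC-9 and 9.41 ± 0.036 in tolerant H1975 cells, a log2 difference of -2.42 ± 0.17 (adjusted p = 1.82e-11 by limma). Its partner CHAF1B was not called, at 0.07 ± 0.16 (adjusted p = 0.762 by limma). The tolerant arrays of UHRF1 and CHAF1A do not overlap between the lines, and neither do those of RRM1, PCNA, FEN1 and MCM4. RRM1 averaged 12.43 ± 0.12 in tolerant PC-9 and 14.29 ± 0.032 in tolerant H1975 cells, a log2 difference of -1.86 ± 0.09 (adjusted p = 5.35e-15 by limma). PCNA averaged 12.03 ± 0.15 in tolerant PC-9 and 13.78 ± 0.10 in tolerant H1975 cells, a log2 difference of -1.75 ± 0.11 (adjusted p = 7.08e-13 by limma). FEN1 differed by -1.38 ± 0.13 and MCM4 by -1.23 ± 0.10, with adjusted p of 2.41e-09 and 1.93e-10 by limma. Each of these line differences is larger in size than the log2 fold change of the same gene with SK-216 in either line.

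By role, the counts of called genes are read against 22.7% of all probe sets called lower in PC-9 and 21.3% called higher. Of 10 licensing genes 8 were lower in PC-9, with MCM3 (0.03) and CDT1 (-0.30) not called. Of 6 helicase activators 4 were lower, with CDC45 (-0.13) and GINS2 (-0.49) not called. Among the activators MCM10 and GINS3 each differed by -1.97. Of the polymerase genes 4 of 6 were lower, among them POLE2 (-2.15). Of the clamp genes PCNA and RFC2 (-0.91) were lower, and RFC3, RFC4, RFC5 and DSCC1 were not called, between -0.31 and 0.07. Of the cyclin and E2F genes E2F1 (-1.79), CCNE1 (-0.62), CDC25A (-1.69) and E2F2 (-0.50) were lower, and E2F8 (-0.25 ± 0.14) was not called (adjusted p = 0.177 by limma). The tolerant PC-9 means of CDC25A (4.84) and E2F2 (4.92) lay below the level of dim signal, as did those of MCM10 and POLE2, so the fitted differences of these 4 genes are taken against a dim PC-9 signal.

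The 3 genes that stood higher in tolerant PC-9 cells were TK1, LIG1 and CCNE2. TK1 had 12.06, 12.12 and 12.12 in tolerant PC-9 cells, against 11.45, 11.35 and 11.51 in tolerant H1975 cells, and its log2 difference was 0.66 ± 0.10 (adjusted p = 4.37e-06 by limma). TK1 also had the smallest spread between arrays of the 44 genes, a pooled SD of 0.0708. LIG1 differed by 0.76 ± 0.23 (adjusted p = 0.0101 by limma) from a dim H1975 signal, and CCNE2 by 0.55 ± 0.20 (adjusted p = 0.0321 by limma) with 1 overlapping H1975 array. Within deoxynucleotide supply TK1 thus stood opposite to RRM1, RRM2 (-0.51 ± 0.11) and TYMS (-0.67 ± 0.14), which were lower in PC-9.

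The other cell cycle lists were counted in the same way. The counts of this paragraph compare with 22.7% of all probe sets called lower in PC-9 and 21.3% called higher. Of 41 further replication factors, 25 were lower and 6 higher, with a median log2 difference of -0.45. Of 30 genes of G2/M and mitosis, 18 were lower and 5 higher, with a median of -0.43. Of 26 G1 regulators, 8 were lower and 8 higher, with a median of -0.07, and CCND1 was higher in tolerant PC-9 by 2.66 ± 0.11 (adjusted p = 5.9e-16 by limma). Among the genes with a promoter, 16 of 22 with an E2F motif were lower and 1 higher, against 10 of 16 lower and 1 higher without the motif.

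**Figure D5:**
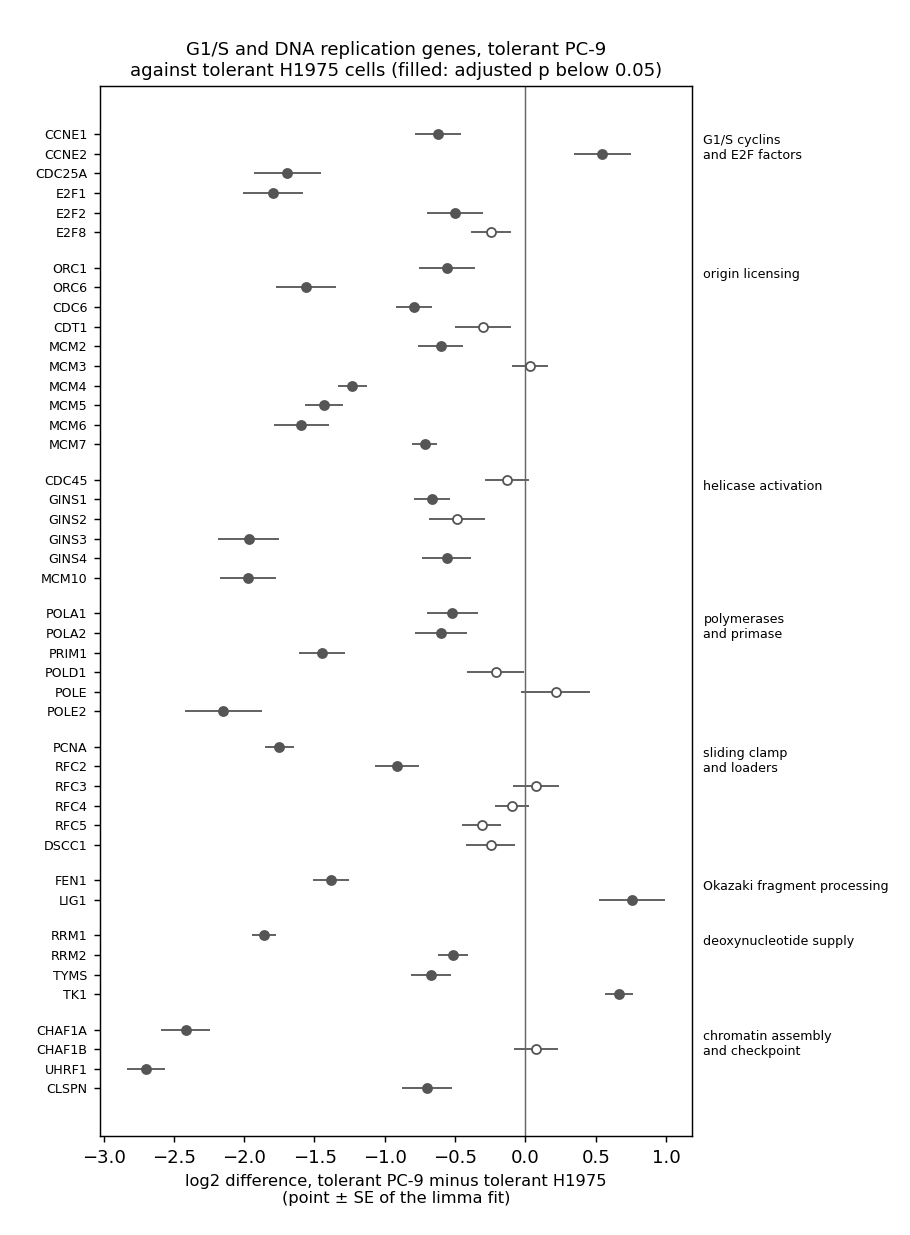
Log2 difference of tolerant PC-9 minus tolerant H1975 cells for each of the 44 genes (x axis, point ± standard error of the limma fit, 3 arrays per group), ordered by role. Filled points have an adjusted p below 0.05: 29 lie left of 0 and 3, CCNE2, LIG1 and TK1, lie right of it.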

How the data were processed

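Each of 12 samples gave 250 ng of RNA to a 1-colour whole-transcript array, per the labels' protocols. The authors deposited log2 signals, with a single value for every probe set on every array. The submitters' processing notes name Transcriptome Analysis Console; no version, summarisation, normalization or array build is given in the sources used here. No further normalization was applied. Of 21448 probe sets, 17709 had 1 gene symbol, 0 had several and 3739 were unnamed here, and all 17709 identifiers were found in the RefSeq table.

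limma 3.58.1 (R 4.3.3) was fitted with a mean for each of the 4 groups on all 12 arrays and all probe sets, using eBayes with a trend. Residual degrees of freedom were 8 and prior ones had a median of 15.0. Tests were two-sided, with Benjamini-Hochberg adjustment over all probe sets. Depth does not apply to arrays, and the precision rests on 3 arrays per group. An exact permutation test of 3 against 3 cannot go below p = 0.1. The fit was tested on simulated data.

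The 44 members and the other lists were chosen with earlier results of these data known. Values per array are given for members called in an SK-216 contrast or in the difference and for the 6 with the smallest p of each contrast, 18 in all. Genes of other pathway lists and cell type markers are named where called in an SK-216 contrast.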

Additional observations from a re-analysis of the deposited data

Results flagged for a closer look

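The test of the difference itself called the SK-216 change as different between the lines for 304 of 21448 probe sets, 1.42%. Among the 44 genes and the 3 other cell cycle lists it called 3 genes, given as PC-9 minus H1975 on the log2 scale with the standard error of the limma fit. E2F8, a repressor of the E2F family, differed by 0.98 ± 0.20 (adjusted p = 0.00946). E2F7, its relative, differed by -0.97 ± 0.24 (adjusted p = 0.038). CCND1, cyclin D1, differed by -0.76 ± 0.16 (adjusted p = 0.01). Of the epithelial markers, the difference was also called for CDH1 (1.74 ± 0.19), KRT18 (0.52 ± 0.11) and KRT8 (0.34 ± 0.09), with adjusted p of 4.77e-06, 0.00951 and 0.0476 by limma. Groups of 3 arrays were not tested for single arrays that stand apart.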

How the results depend on the processing

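Results were recomputed without the variance trend, with robust eBayes, with each line fitted alone, with the replicate number as a block, without dim probe sets by 2 rules, with quantile normalization, with centred arrays, with array weights, at thresholds of 0.01 and 0.1, and without each of the 12 arrays. No single-gene result reversed. Of 768 single-gene values over 34 results, 710 kept their side of the threshold, 57 lost the call and 1 gained it. Results not called in the main fit could not lose a call. The losses fell on CCNA2 (12 of 23 alternatives), CDKN1A (10 of 23), AURKA (8 of 23), TOPBP1 (7 of 23) and RPA2 (6 of 23). They also fell on the differences of E2F7 (12 of 22) and CCND1 (2 of 22). The count of called genes in PC-9 with SK-216 stayed at 0 in all 23 alternatives, and that in H1975 at 1, except 2 at an adjusted p below 0.1, where CDC45 was added. E2F8 in H1975 was called in every alternative, with a highest adjusted p of 0.0455. The line comparison called 26 to 34 genes. Leaving out 1 array, the median of the difference of SK-216 changes ranged over 0.0275 to 0.1192 (0.03667 with all arrays), and the median line difference over -0.6892 to -0.5483 (-0.6117 with all arrays). Without the trend, adjusted p was 0.0997 for RPA2, 0.11 for CDKN1A, 0.238 for CCNA2, 0.204 for AURKA, 0.142 for TOPBP1, 0.156 for the CCND1 difference and 0.148 for the E2F7 difference. After group means were taken off, same-numbered arrays of a line correlated at -0.091 to 0.029 over 6 pairs, and in 4 of 6 the own number correlated best. These values do not decide whether replicate numbers pair the samples. With the replicate block, 0 members were called in PC-9 and 1 in H1975, and the calls of CDKN1A (adjusted p = 0.0768), CCNA2 (0.1), AURKA (0.0732), TOPBP1 (0.0819) and the E2F7 difference (0.0681) ended. With each line fitted alone, the calls of CDKN1A, CCNA2, AURKA and TOPBP1 ended. Quantile normalization ended those of CDKN1A and CCNA2. The 3 arrays per group limit all of these, and labels give no batch.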
